A study of Homo sapiens with 18 samples.

Results

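The desmosome components were followed across MCF10A cells and 2 lines derived from them by chronic exposure to BMP2 and IL6. The set comprised 10 genes, chosen by name as building blocks of the desmosome: DSG2, DSG3, DSC2, DSC3, DSP, JUP, PKP1, PKP2, PKP3 and PERP. They were 10 of 19775 genes with a probe set of their own on the arrays, and each was represented by its probe set with the highest mean. MCF10A is an immortalised, nonmalignant human mammary epithelial line. MCF10A-CT cells were the control, kept in standard medium without added IL6 or BMP2. MC26 cells arose from unsorted MCF10A cells kept with IL6 at 10 ng/ml and BMP2, and M1B26 cells from MCF10A cells sorted for the BMP receptor BMPR1B and kept with the same 2 factors. The labels give BMP2 as 5 ng/ml in one field and 10 ng/ml in another. By the study's methods M1B26 was expanded from a small number of soft-agar clones, so it stands for those clones. From each line, unsorted cells and the CD10- and CD10+ fractions of a flow sort were hybridised, giving 9 groups of 2 arrays. The deposited values were array intensities, brought by the authors to the same median on all 18 arrays.

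Desmosomes are intercellular junctions that tie the keratin filaments of neighbouring epithelial cells together and give the sheet its mechanical strength. Desmogleins and desmocollins are the cadherins that bridge the membranes; plakoglobin and the plakophilins bind their tails inside the cell, and desmoplakin links this plaque to keratin. In the mammary gland they hold luminal and basal cells in one epithelium, and CD10 is a surface peptidase, encoded by MME, that marks basal and myoepithelial cells.

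Sequences around the start site are shown for 3 members because their behaviour in M1B26 differed: DSP and DSG3 were lower in CD10+ than in CD10- cells, and DSG2 had the smallest difference. The windows are 300 bases of RefSeq sequence around an annotated gene start on GRCh38.p14, for DSP at chr6:7541421-7541720 on the plus strand, for DSG2 at chr18:31497927-31498226 on the plus strand and for DSG3 at chr18:31447491-31447790 on the plus strand. Capitals mark CACCTG or its reverse complement CAGGTG, the E-box letters that ZEB and SNAI repressors can bind, searched on both strands with TGANTCA (AP-1) and with AACCNGTT and its reverse complement AACNGGTT (GRHL).
DSP: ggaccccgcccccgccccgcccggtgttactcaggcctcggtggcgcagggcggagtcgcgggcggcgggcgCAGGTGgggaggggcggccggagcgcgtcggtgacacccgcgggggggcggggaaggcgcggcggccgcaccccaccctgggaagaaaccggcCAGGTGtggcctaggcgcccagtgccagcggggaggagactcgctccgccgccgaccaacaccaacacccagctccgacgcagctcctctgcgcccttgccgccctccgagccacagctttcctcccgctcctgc
DSG2: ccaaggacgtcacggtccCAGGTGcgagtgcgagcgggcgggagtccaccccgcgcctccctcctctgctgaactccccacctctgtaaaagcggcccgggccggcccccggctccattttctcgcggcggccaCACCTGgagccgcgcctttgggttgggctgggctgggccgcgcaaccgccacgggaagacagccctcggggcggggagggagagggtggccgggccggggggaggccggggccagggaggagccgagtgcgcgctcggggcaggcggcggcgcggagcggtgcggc
DSG3: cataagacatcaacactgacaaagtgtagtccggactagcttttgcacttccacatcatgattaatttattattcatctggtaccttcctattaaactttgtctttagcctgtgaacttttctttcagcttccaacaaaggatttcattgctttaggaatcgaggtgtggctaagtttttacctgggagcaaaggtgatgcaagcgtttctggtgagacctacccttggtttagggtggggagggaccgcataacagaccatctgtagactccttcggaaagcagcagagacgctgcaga
DSP and DSG2 each held 2 E-box matches in the window and DSG3 held 0. Of the 10 windows listed for 8 members, 4 held an E-box, 1 a TGANTCA and 0 an AACCNGTT, whereas 20.6%, 7.71% and 1.73% of all 35116 windows did. A match describes letters and not binding, and a missing match says only that these letters are not in the window.

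The gates were checked on MME. Its intensity was 48.3 and 65 on the CD10+ arrays against 9.73 and 11.3 on the CD10- arrays of MCF10A-CT, 69.8 and 90.7 against 27.8 and 6.39 in MC26, and 1270 and 1020 against 56.4 and 15.9 in M1B26, so the gates did not overlap in any line. Correlation of log2 values between arrays of one group was 0.937 to 0.954 across probe sets. Basal epithelial markers were read on KRT5, KRT14 and ITGB4, all 3 above the intensity limit, with a summed intensity of 5740 to 15300 across the groups. On the CD10+ M1B26 arrays that sum was 5740 to 7170, and on the CD10- M1B26 arrays 9210 to 14300. KRT5 made up most of it on the CD10+ arrays, at 5080 and 4390 against 7020 and 5650 on the CD10- arrays. KRT14 was at 1680 and 1010 against 6210 and 2560, and ITGB4 at 407 and 341 against 1050 and 1010. KRT5 and KRT14 did not pass the test, as given below. CDH1 and EPCAM, markers of epithelium in general, were lower on those arrays than on the CD10- M1B26 arrays, as given below. The basal sum therefore does not settle the epithelial identity of CD10+ M1B26 cells. The sorted MCF10A-CT arrays stood apart from the sorted arrays of the other lines: 20% and 26.4% of all genes were called between them and the CD10- cells of MC26 and M1B26, against 0.32% and 0.674% between the unsorted cells of the same lines. Comparisons between M1B26 and MC26 use those arrays for the pooled spread alone. The comparisons below were fitted with limma over 12171 genes above an intensity of 14.3, on log2(intensity + 1), with p-values adjusted over all of them (threshold 0.05). The labels call the arrays of a group biological replicates without naming separate cultures, so the p-values measure the spread between these arrays. In RNA from whole populations, fewer cells with a transcript and less transcript per cell cannot be told apart.

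Desmosome transcripts were lower in the CD10+ than in the CD10- cells of M1B26. Of the 9 members tested, 8 fell, from PKP2 at 5.17-fold to PERP at 1.65-fold, and 0 rose; among all genes tested 2.74% fell, or 3.95% under quantile normalisation, 4.38% with arrays centred on the tested genes and 8.85% with the replicate number as a block on the sorted arrays. Of the genes called, 57.9% were higher, against 45.4% after centring. The median log2 difference of the 9 was -1.56, beside 0.01 for all genes. The 2 CD10+ M1B26 arrays were also below the other 16 arrays for 8 of the 9, DSG2 being the exception, which was so for 3.75% of all genes. They lay below the CD10- M1B26 arrays for all 9, and for 25.5% of all genes. Gates that do not overlap are therefore common in this comparison.

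**Figure D1:**
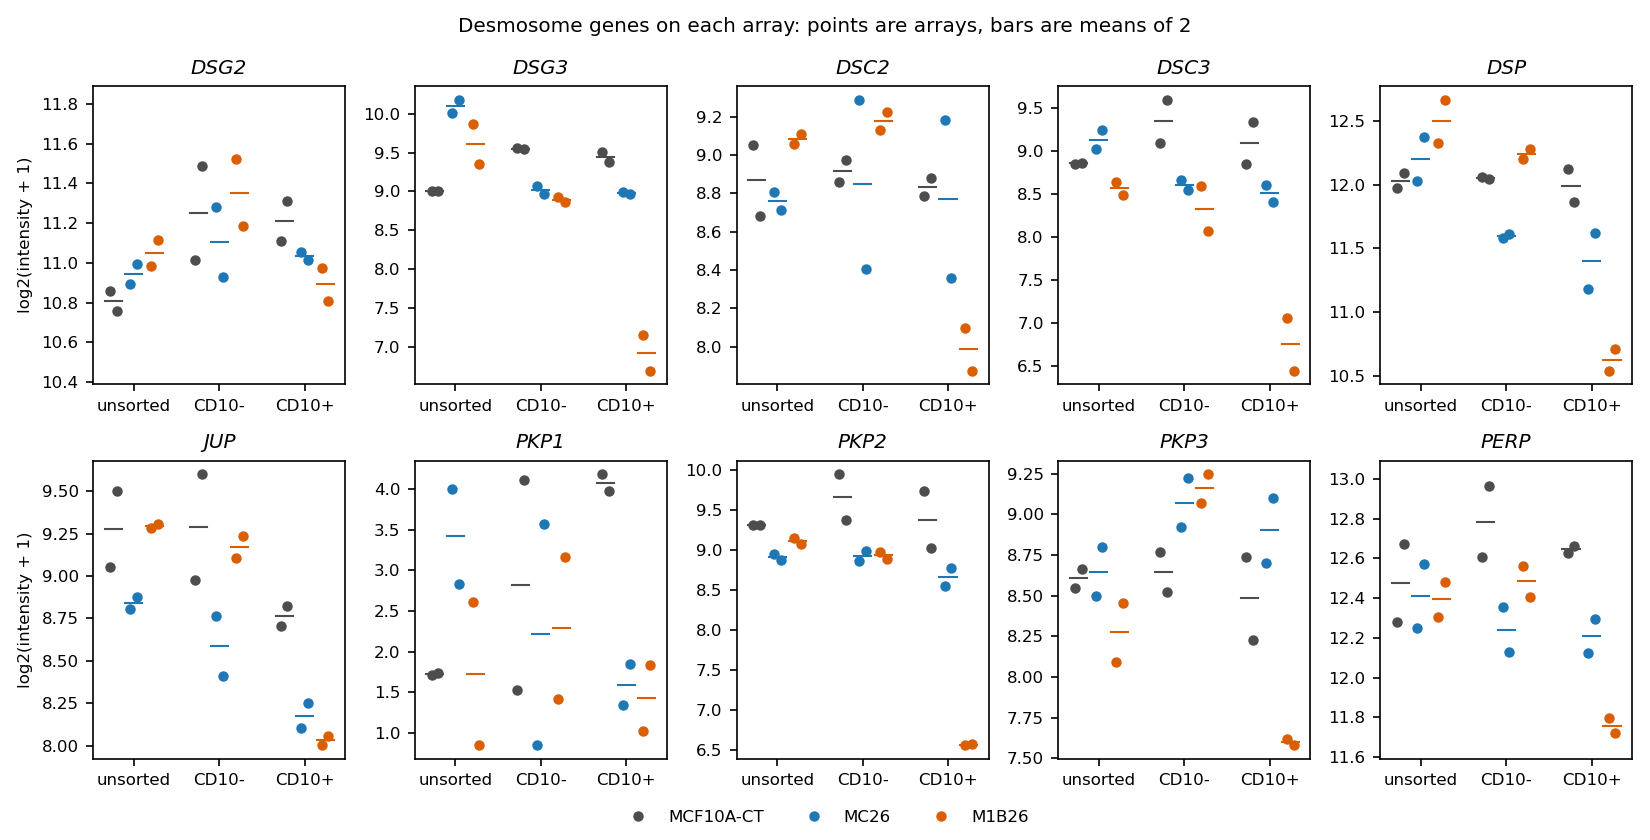
Log2(intensity + 1) of the 10 desmosome genes on each of the 18 arrays, by population on the horizontal axis and by line in colour, with a bar at the mean of each pair and a separate vertical scale in each panel. In 8 panels the 2 CD10+ M1B26 points lie under all others, and in the DSG2 and PKP1 panels they do not.

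Among the desmosomal cadherins, DSG3, the desmoglein of basal stratified and myoepithelial layers, had intensities of 484 and 464 on the CD10- and 142 and 103 on the CD10+ arrays of M1B26. The pairs lay far apart, and the log2 difference was -1.96 ± 0.21 (SE, n = 2 arrays per gate; limma adjusted p = 3.49e-05). DSC3, the desmocollin usually expressed beside DSG3, stood at 385 and 267 on the CD10- and at 133 and 86.5 on the CD10+ arrays. Its gates did not overlap, with a log2 difference of -1.57 ± 0.26 (limma adjusted p = 0.0016). DSC2, the widely expressed desmocollin, was measured at 558 and 596 in CD10- and at 273 and 234 in CD10+ cells. This was a smaller fall, of 2.28-fold (log2 -1.19 ± 0.29, limma adjusted p = 0.0203).

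DSG2, the widely expressed desmoglein, did not pass the test in M1B26. Its intensities were 2940 and 2320 in CD10- and 2010 and 1790 in CD10+ cells, a log2 difference of -0.46 with a 95% interval of -0.86 to -0.06 (limma adjusted p = 0.179). It passed in 1 of 31 alternatives, quantile normalisation (limma adjusted p = 0.0469). The M1B26 CD10+ values fell inside the range of the other groups, which ran from 1730 to 2940. Over the 9 groups the mean log2 level of DSG2 spanned 0.54, against 3.17 for DSG3. DSG2, DSG3, DSC2 and DSC3 lie in 1 run of 7 neighbouring genes on human chromosome 18, in the order DSC3, DSC2, DSC1, DSG1, DSG4, DSG3 and DSG2. The genes in the middle of that run, DSC1, DSG1 and DSG4, belong to suprabasal epidermis and hair and were at or near background on all 18 arrays, at 0.35 to 6.67, 0.225 to 6.79 and 0.17 to 11.3.

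Of the plaque proteins, DSP, desmoplakin, the link to keratin filaments, had intensities of 4700 and 4970 in CD10- and 1490 and 1680 in CD10+ cells of M1B26. The difference of -1.61 ± 0.18 on the log2 scale corresponds to 3.05-fold (limma adjusted p = 4.72e-05). JUP, plakoglobin, which is shared between desmosomes and adherens junctions, stood at 549 and 601 against 256 and 266. The JUP pairs did not overlap, at a log2 difference of -1.14 ± 0.23 (limma adjusted p = 0.00586).

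The plakophilins, armadillo-repeat proteins that cluster desmoplakin and the cadherin tails, comprised 2 measurable members, both of which fell, and PKP1. PKP2, the plakophilin of simple epithelia and heart, was at 503 and 472 in CD10- and at 93.1 and 93.8 in CD10+ cells of M1B26. It showed the largest fall of the 9 in this comparison, -2.37 ± 0.24 on the log2 scale (limma adjusted p = 2.18e-05). PKP3 was at 537 and 606 in CD10- and 196 and 191 in CD10+ cells, a log2 difference of -1.56 ± 0.24 (limma adjusted p = 0.000718). PKP1, the plakophilin of stratified epithelia, ranged from 0.802 to 17.1 over the 18 arrays, under the intensity limit on average, and was not tested. PERP, a tetraspan membrane protein of the desmosome, was at 6040 and 5430 in CD10- and at 3550 and 3370 in CD10+ cells. Its fall of 1.65-fold was the smallest among those called (log2 -0.73 ± 0.17, limma adjusted p = 0.0172).

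Removal of 1 array changed which members were called. Without replicate 1 of the CD10+ or replicate 2 of the CD10- M1B26 arrays 5 members were called. DSG3, DSC3, DSP, PKP2 and PKP3 passed in every alternative run that kept them, while DSC2 was lost in 6 of 31, PERP in 7 of 31 and JUP in 2 of 30. The other probe sets of the members that passed the intensity limit, 11 from 7 genes, all lay below 0 in this comparison, and 6 of the 11 passed the test. The other probe sets of DSC2 did not pass, at -1.18, -0.6 and -0.56 on the log2 scale, with limma adjusted p of 0.155, 0.374 and 0.521. DSP and JUP had 1 probe set each.

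**Figure D2:**
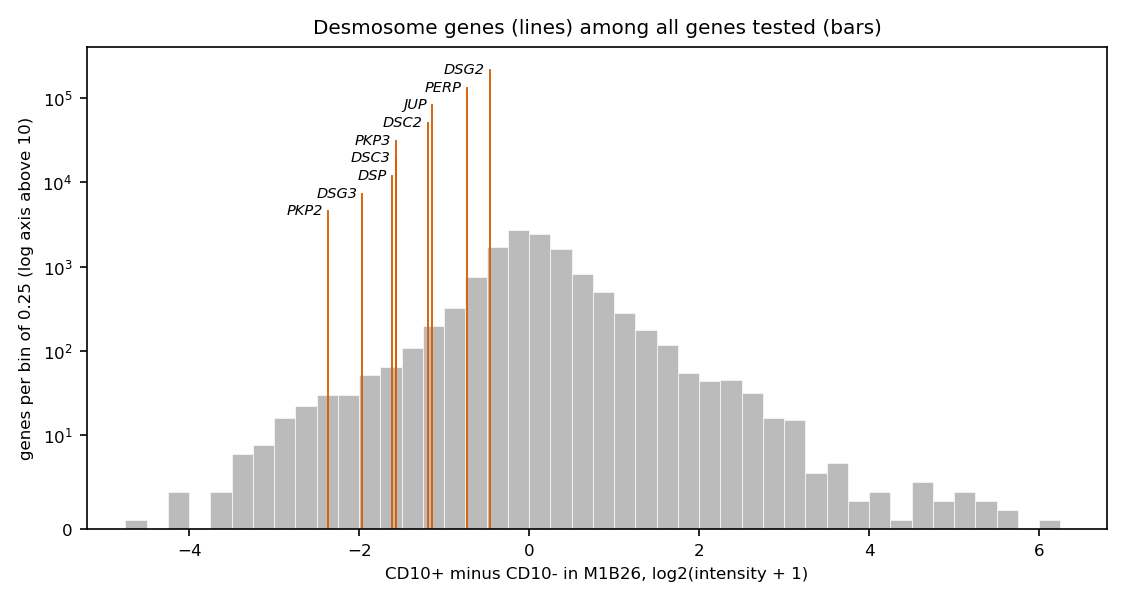
Number of genes tested, on a log axis above 10, by their log2(intensity + 1) difference of CD10+ minus CD10- cells in M1B26 (bars, 12171 genes), with the 9 desmosome genes as labelled lines. All 9 lines lie left of 0, between -2.37 and -0.46; line heights carry no value.

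In MCF10A-CT and in MC26 the same comparison called 0 of 9 members and 0 of 12171 genes with limma, and with the block on the sorted arrays 0 members and 78 and 21 genes. The differences of the 9 lay between -0.52 and -0.04 on the log2 scale in MCF10A-CT and between -0.41 and -0.03 in MC26. Their medians, -0.14 and -0.1, stood beside medians of -0.05 and -0.1 over all genes, and at an unadjusted p under 0.05 1 member passed in MCF10A-CT and 0 in MC26, with 166 and 100 of all genes. That 1 member was JUP, at 502 and 775 in CD10- and 416 and 452 in CD10+ cells of MCF10A-CT (log2 -0.52 ± 0.23, unadjusted p = 0.0366 and adjusted p = 1 with limma). No alternative run called a member in either line, and several of the smaller differences turned sign, 2 under quantile normalisation in MCF10A-CT and 5 in MC26. DSG3 in MC26 was at 539 and 499 in CD10- and at 508 and 499 in CD10+ cells, with a 95% interval of the log2 difference of -0.49 to 0.4.

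**Figure D3:**
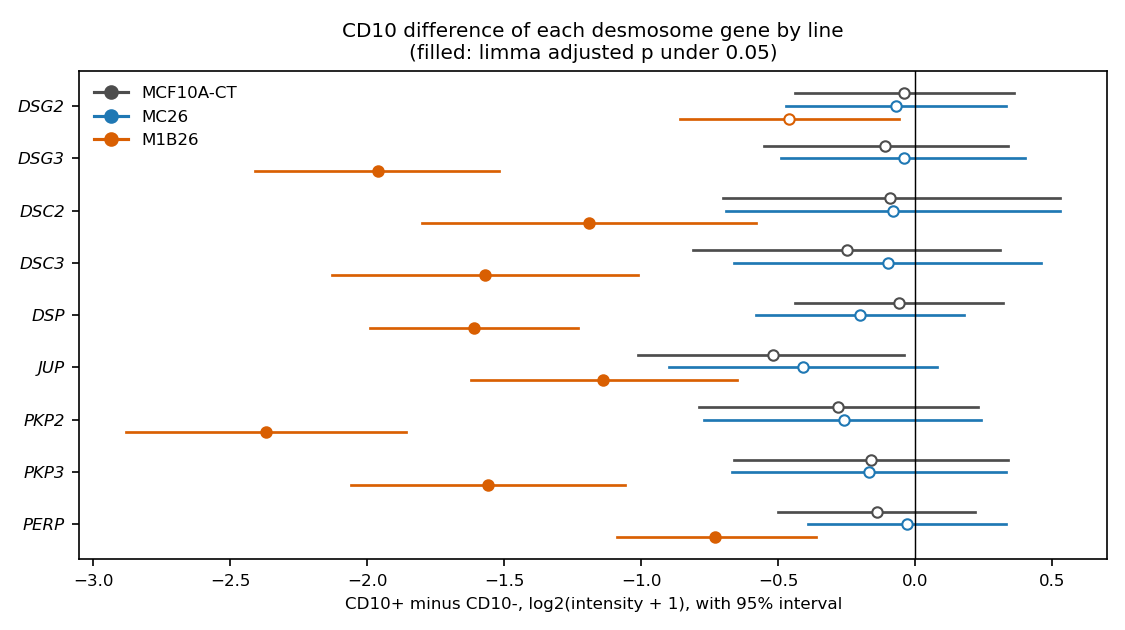
Log2(intensity + 1) difference of CD10+ minus CD10- cells for the 9 desmosome genes tested, by line, with 95% intervals from limma; filled points passed the test. The 8 filled points are all of M1B26, from -2.37 to -0.73, and the intervals of MCF10A-CT and MC26 reach 0 except that of JUP in MCF10A-CT.

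The difference between lines was tested itself. The CD10 difference was lower in M1B26 than in MCF10A-CT for 3 of the 9 members, against 0.715% of all genes: DSG3 by -1.86 ± 0.29, DSP by -1.55 ± 0.25 and PKP2 by -2.09 ± 0.34 on the log2 scale (limma adjusted p = 0.00488, 0.00565 and 0.00557). Against MC26 the same 3 genes were called, at -1.92 ± 0.29, -1.41 ± 0.25 and -2.11 ± 0.34, beside 0.608% of all genes (limma adjusted p = 0.00345, 0.00942 and 0.00455). These 2 comparisons share the M1B26 arrays. DSP against MC26 was lost in 3 of 31 alternatives, without moderation, without replicate 2 of the CD10- and without replicate 1 of the CD10+ M1B26 arrays (limma adjusted p up to 0.0606). PKP2 against MCF10A-CT was lost in 1 of 30, with only the groups compared (limma adjusted p = 0.0595). PKP3 had a limma adjusted p of 0.0524 and 0.0564 in the 2 comparisons, and DSC3 of 0.118 and 0.0683. With the replicate number as a block on the 12 sorted arrays, DSC2, DSC3 and PKP3 passed as well, 6 of 9 in each comparison, beside 4.53% and 3.39% of all genes that fell. The share of higher genes among those called moved from 48.2% to 37.8% against MCF10A-CT and from 51.9% to 38.8% against MC26, under quantile normalisation and centring respectively. MC26 against MCF10A-CT gave 0 members and 0 genes; 0 members and 83 genes had an unadjusted p under 0.05, and no other fit called a member.

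Averaged over the 3 lines, CD10+ cells had lower DSG3 (-0.7), DSP (-0.62), JUP (-0.69), PKP2 (-0.97) and PKP3 (-0.63) on the log2 scale, 5 of 9 members beside 0.674% of all genes with limma. Without the sorted arrays of M1B26 0 of the 9 were called, and 3 without replicate 1 of the CD10- or CD10+ MC26 arrays or without replicate 2 of the CD10- or CD10+ M1B26 arrays. With the replicate block on the sorted arrays DSC2 and DSC3 were called too, 7 in all, beside 4.64% of all genes.

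Within CD10+ cells the lines were then compared at the same gate, in comparisons that share arrays with those above and with each other. M1B26 lay below MCF10A-CT in 8 of 9 members, beside 5.32% of all genes that fell and a median of 0.31 over all genes. Quantile normalisation brought that median to 0, with 9 members and 10.6% of all genes lower, and the share of higher genes among those called moved from 79.9% to 44.6%. PKP2, at 851 and 520 in MCF10A-CT, 372 and 438 in MC26 and 93.1 and 93.8 in M1B26, differed by 7.05-fold between the first and the last (log2 -2.82 ± 0.24, limma adjusted p = 3.58e-06). DSG3 followed at 5.71-fold (725 and 667 against 142 and 103) and DSC3 at 5.04-fold (461 and 642 against 133 and 86.5). The CD10+ M1B26 pair lay below both CD10+ pairs of the other lines in all 9 members. How many of all genes did so was not counted, so this count has no background to be read against. The stricter rule above, below all other 16 arrays, held for 8 of the 9 members and for 3.75% of all genes. DSC2 was 1.8-fold lower, JUP 1.66-fold and PKP3 1.85-fold, and these calls were lost in 9 of 30, 4 of 29 and 4 of 29 alternatives. Without replicate 1 or 2 of the CD10+ M1B26 arrays, or replicate 1 of the CD10+ MCF10A-CT arrays, 5 members were called. Against MC26, 5 members were lower in M1B26, DSG3, DSC3, DSP, PKP2 and PKP3, beside 2.56% of all genes (4.49% under quantile normalisation, where the share of higher genes moved from 78.1% to 50.7%). DSP was lost there without CD10+ MC26 replicate 2 or CD10+ M1B26 replicate 1 (limma adjusted p up to 0.104).

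Between MC26 and MCF10A-CT CD10+ cells only DSP passed the test, 1 of 9 beside 5.47% of all genes that fell (9.24% under quantile normalisation, where the share of higher genes moved from 59.4% to 47.9%). An unadjusted p under 0.05 with limma was found for 6 of the 9 and for 3726 of all genes. PKP2 had a larger difference than DSP without passing (log2 -0.72 ± 0.24, limma adjusted p = 0.0582). DSP stood at 4470 and 3720 in MCF10A-CT and at 2320 and 3150 in MC26 (log2 -0.59 ± 0.18, limma adjusted p = 0.0394). That call was lost in 11 of 30 alternatives, and 0 members were called without either CD10+ M1B26 array, either CD10- MC26 array, CD10+ MC26 replicate 1 or CD10+ MCF10A-CT replicate 1. Without either CD10- MCF10A-CT array 2 were called.

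In CD10- cells 3 members were called in each of the derived lines against MCF10A-CT, with PKP2 among them in both. MC26 lay below MCF10A-CT in JUP (434 and 339 against 502 and 775), PKP2 (464 and 506 against 986 and 663) and PERP (5230 and 4470 against 6240 and 7980), 3 of 9 beside 6.54% of all genes with limma. The log2 differences were -0.7 ± 0.23, -0.74 ± 0.24 and -0.54 ± 0.17 (limma adjusted p = 0.0431, 0.0416 and 0.0363). M1B26 lay below MCF10A-CT in DSG3 (484 and 464 against 752 and 745), DSC3 (385 and 267 against 544 and 772) and PKP2 (503 and 472 against 986 and 663), again 3 of 9, beside 6.66%. Under quantile normalisation 11.2% and 12% of all genes were lower, and the share of higher genes among those called moved from 67.3% to 49.9% and from 74.8% to 51.6%. The MC26 count was 0 without either CD10- MC26 array and without either CD10+ M1B26 array, and 1 without either unsorted M1B26 array or CD10- MCF10A-CT replicate 2. The M1B26 count was 0 without CD10- M1B26 replicate 2 and 1 without CD10- M1B26 replicate 1 or either CD10- MCF10A-CT array. Of the 11 other probe sets above the intensity limit, 4 were called lower in M1B26 than in MCF10A-CT. One of them was of DSC2 (-1.57 ± 0.4, limma adjusted p = 0.0112), while the chosen one was at 0.26. PERP was not called on its chosen probe set (-0.3). Its other probe sets above the limit were at 2520 and 2920 against 4350 and 6080, and at 60.6 and 80.6 against 156 and 233. Between MC26 and M1B26 0 members were called in CD10- cells and 2 had an unadjusted p under 0.05 with limma, of 877 genes, and no other fit called one. Those 2 were DSP, at 3060 and 3130 in MC26 and 4700 and 4970 in M1B26, and JUP, at 434 and 339 and at 549 and 601.

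Unsorted cells showed 1 member called among the lines. DSG3 was at 513 and 514 in MCF10A-CT, 1030 and 1160 in MC26 and 931 and 655 in M1B26. MC26 exceeded MCF10A-CT by 2.13-fold (log2 1.09 ± 0.21, limma adjusted p = 0.0316), where 0.197% of all genes rose. It was not called under quantile normalisation, nor without either unsorted MCF10A-CT array, unsorted MC26 replicate 2 or either CD10- MC26 array. For M1B26 against MCF10A-CT 0 members were called with limma, DSG3 (0.6 ± 0.21) and DSP (0.47 ± 0.18) having an unadjusted p under 0.05, as had 879 of all genes. For M1B26 against MC26 0 members were called with limma, and DSG3 (-0.49 ± 0.21) and DSC3 (-0.57 ± 0.26) had an unadjusted p under 0.05, as had 553 of all genes; no other fit called a member in either.

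The unsorted level of some members lay outside the levels of both gates of the same line. DSG3 in M1B26 stood at 931 and 655 unsorted, above both its CD10- (484 and 464) and CD10+ pairs (142 and 103). In MC26 it was again higher unsorted (1030 and 1160 against 539, 499, 508 and 499), and in MCF10A-CT it was lower unsorted (513 and 514 against 752, 745, 725 and 667). On this chosen probe set the mean of the gates minus the unsorted cells was -1.7 ± 0.18 in M1B26, -1.1 ± 0.18 in MC26 and 0.49 ± 0.18 in MCF10A-CT. The first 2 passed the test (limma adjusted p = 0.000137 and 0.0101) and the last did not (0.0623). On the other DSG3 probe set, unsorted (364 and 286) and CD10- (315 and 296) M1B26 arrays overlapped. There MC26 was again higher unsorted (408 and 439 against 358, 331, 310 and 332). MCF10A-CT was again lower unsorted (195 and 278 against 442, 457, 424 and 406).

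In M1B26 the mean of the gates lay below the unsorted cells in 4 members, DSG3, DSC3, DSP and PKP2, beside 1.65% of all genes, and in MC26 2 were, DSG3 and DSP, beside 0.304% (2.69% and 0.526% under quantile normalisation, where the share of higher genes in M1B26 moved from 60.8% to 43.9%). This mean includes the low CD10+ arrays described above. Taken alone, the CD10- arrays of M1B26 overlapped the unsorted ones for DSC3 (385 and 267 against 399 and 357) and lay near them for PKP2 (503 and 472 against 567 and 537) and DSP (4700 and 4970 against 5140 and 6500). DSC3 in M1B26 was lost without either unsorted array, CD10- replicate 2 or CD10+ replicate 2. In MC26 the count was lower in 15 of 18 fits that left out an array, all but those without either CD10- MCF10A-CT array or CD10+ MC26 replicate 2, and was 0 without unsorted MC26 replicate 2. In MCF10A-CT 0 were called with limma, and DSG2 and DSG3 had an unadjusted p under 0.05, among 4439 of all genes; quantile normalisation called 3 members, centring 2 and the fit without CD10- MCF10A-CT replicate 1 called 1, and the share of higher genes moved from 29.6% to 48.6% with centring. In MCF10A-CT DSG2 and DSG3 were higher in the sorted cells (log2 0.42 and 0.49). Over the lines together, with DSG3 of opposite sign in MCF10A-CT, 5 were lower, DSG3, DSC3, DSP, JUP and PKP2, beside 8.44% of all genes. The DSC3 call was lost in 20 of 29 alternatives (limma adjusted p up to 0.108) and that of PKP2 in 6 of 28, where its value came to -0.09 with the mean over probe sets. That count was 2 without unsorted MCF10A-CT replicate 2, and 3 without its replicate 1, without either unsorted M1B26 array or without unsorted MC26 replicate 1. Another DSC2 probe set was higher in sorted cells (1.6 ± 0.22, limma adjusted p = 0.00017), where the chosen one was at -0.15.

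The sorted minus unsorted difference was lower in MC26 than in MCF10A-CT for DSG3 (-1.59 ± 0.25, limma adjusted p = 0.0056), 1 of 9 beside 2.04% of all genes. The mean of the M1B26 gates again includes the low CD10+ arrays. The difference was lower in M1B26 than in MCF10A-CT for DSG3 (-2.19 ± 0.25), DSC3 (-1.38 ± 0.32), DSP (-1.06 ± 0.22) and PKP2 (-1.57 ± 0.29), 4 of 9 beside 2.73%. Under quantile normalisation 4.12% and 5.69% of all genes were lower, and in the M1B26 comparison the share of higher genes moved from 77% to 51.2%; centring took it from 66.4% to 55.6% in that of MC26. Without unsorted M1B26 replicate 1, 2 of these were called. Without CD10+ MC26 replicate 2 or CD10- MCF10A-CT replicate 1, 2 were called for MC26. Between M1B26 and MC26 0 members and 0 genes were called with limma; 2 members, DSG3 and PKP2, and 722 genes had an unadjusted p under 0.05, and no other fit called a member.

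Across the 9 groups the members varied together to differing degrees, as a description of group means that share the same arrays. Pearson r between pairs of the 9 tested members ran from 0.273 to 0.951 (median 0.752, 36 pairs), the highest being DSC3 with PKP2 and the next DSG3 with DSC3 at 0.933. Without the CD10+ M1B26 group the same r ran from -0.624 to 0.904 with a median of 0.212, and 10 of 36 pairs were below 0. The shared course of the members therefore rested largely on 1 group of 2 arrays. Against the mean of the standardised members, PKP2 (0.963) and DSC2 (0.937) were closest and DSG2 (0.555) farthest.

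The tested genes outside the set whose 9 group means were most like that mean were MET, CRB3, SPINT2, MAP7, TC2N, TMEM40, ANK3, ST14, CYP27B1 and FAT2, with r from 0.95 to 0.988. MET, the hepatocyte growth factor receptor, stood at 1840 and 1350 in CD10- and 701 and 502 in CD10+ cells of M1B26. FAT2, an epithelial protocadherin, stood at 240 and 194 and at 25.2 and 27.3. Of these 10, 7 were also among the 10 closest after quantile normalisation. All 10 had their lowest group mean in CD10+ M1B26 cells, so the values of MET and FAT2 there enter the r that selected them. For these genes r without that group is not given.

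Related genes were then read in the same M1B26 comparison, in which 3.76% of all genes were higher and 2.74% lower. Of 9 other desmosomal and plaque genes, among them the suprabasal cadherins above, 5 were above the intensity limit and 0 were called with limma. Of those 5, the closest was PKP4, an armadillo protein of cell contacts, with a log2 difference of -0.73 ± 0.21 (limma adjusted p = 0.0541), and their median was -0.53. EVPL and KAZN were also below 0 (-0.65 and -0.53), while PPL, periplakin, and PNN, pinin, were above 0 (1.1 ± 0.44 and 0.42 ± 0.17). Adherens junction genes gave 3 lower and 1 higher of 9 tested. E-cadherin, CDH1, was at 481 and 718 in CD10- and at 39.6 and 54.2 in CD10+ cells (log2 -3.64 ± 0.24, limma adjusted p = 5.07e-07), and P-cadherin, CDH3, at 1110 and 1270 and at 335 and 408. NECTIN1 was lower (-1.75) and NECTIN2 higher (1.0), while CTNNB1 (-0.1) and CTNNA1 (-0.13), the catenins of the same junction, did not pass.

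The keratins, to which desmoplakin attaches, with vimentin gave 1 lower (KRT18, -0.9) and 1 higher (KRT8, 0.94) of 8 tested, and KRT5 and KRT14 did not pass (-0.42 and -1.61, limma adjusted p = 0.288 and 0.102). Among transcription regulators of epithelial junction genes 3 were higher and 2 lower of 11 tested. ZEB1, a repressor of epithelial genes, was at 123 and 51.4 in CD10- and at 603 and 587 in CD10+ cells. ZEB2 was at 22.7 and 0.864 and at 232 and 313, with the CD10- mean near background, so no fold is given, and TWIST1 rose by 1.71 on the log2 scale. OVOL2, a repressor of ZEB1, was at 91.3 and 115 and at 15.5 and 20.8, and GRHL1, an activator of desmosomal genes, at 43.8 and 45.9 and at 18 and 18. In each of these 5 genes the gates of M1B26 did not overlap. The CD10+ arrays lay below the CD10- arrays for 25.5% of all genes. Among 9 tested enzymes that act on desmosomal proteins, ST14, the membrane protease matriptase, was lower (-3.63) and PRKCA, a kinase that loosens desmosomal adhesion, higher (1.7), and the other 7 did not pass.

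**Figure D4:**
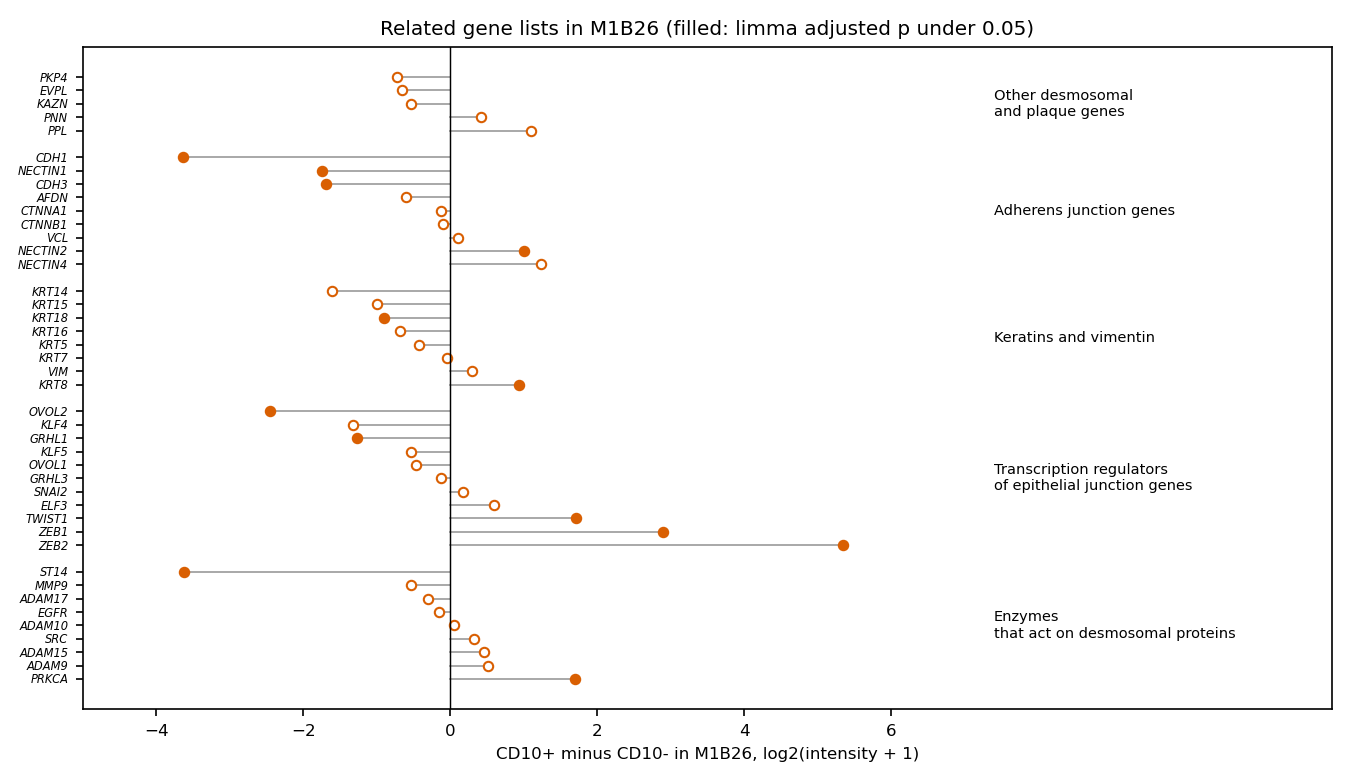
Log2(intensity + 1) difference of CD10+ minus CD10- cells in M1B26 for the tested genes of 5 related lists, with filled points for genes past the limma test. CDH1 at -3.64 is the lowest point, the ZEB2 point is set against a CD10- mean near background and has no reliable size, and all 5 points of the other desmosomal genes are open.

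Markers of other cell types were read beside the fall in CD10+ M1B26 cells. The summed intensity of 6 fibroblast markers was 5260 to 5360 on the CD10+ M1B26 arrays and 126 to 975 on the arrays of the other 8 groups. Of the 6, DCN, decorin, carried this, at 5160 and 5030 against 235 and 175 in CD10- cells. COL1A1 (120 and 182 against 98.1 and 113) was the only other one above the intensity limit on average over the 18 arrays. COL1A2, COL3A1, PDGFRB and THY1 were at 1.09 to 24.8 on those CD10+ arrays. There THY1 (24.8 and 17.9 against 7.19 and 18.8) and COL1A2 (17.8 and 23.4 against 5.15 and 22.6) were above 14.3. The summed level of 4 leukocyte markers was 143 to 200 there and 145 to 480 elsewhere, that of 4 endothelial markers 52.2 to 63 against 47.6 to 69.9, and that of 3 melanocyte markers 28.8 to 46.3 against 7.44 to 41.6. CDH1, EPCAM, KRT8 and KRT18 summed to 4780 to 5050 in CD10+ M1B26 cells and to 5540 to 10100 in the other groups, and EPCAM alone was at 111 and 190 against 2170 and 2860 in CD10- cells of M1B26. The part of these genes in the desmosome differences was not tested.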

How the data were processed

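RNA was profiled on 18 Affymetrix arrays, 2 for each of 3 lines unsorted, CD10- and CD10+. The authors deposited linear intensity values, made per the labels with MAS5 in Affymetrix Expression Console (version not given in the sources used here) and scaled to one median per array, here 16.652; the upper quartile still ranged from 94.61 to 123. Probe sets were named from the platform annotation, with symbols updated through RefSeq. Of 54675 probe sets, 41091 had 1 gene, 1801 several, 11721 none and 62 were controls; only those with 1 gene were used.

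Each gene was given its probe set with the highest mean of log2(intensity + 1). The 12171 genes whose mean exceeded that of the middle probe set (log2 3.93) were fitted in R 4.3.3 with limma 3.58.1: a mean for each of 9 groups, moderation with an intensity trend (residual degrees of freedom 9, prior 6.28), tests on both sides and Benjamini-Hochberg adjustment within each of 17 comparisons. The 6 comparisons of sorted with unsorted cells by line and between lines, the count of lowest arrays and the check of other probe sets were added after values were seen. Precision is limited by the number of arrays; between 2 groups the SE had a median of 0.296. Members, lists and named genes were chosen with earlier results of these data known: all 10 members, up to 6 called genes per list, and the 10 genes most like the members' mean; PKP4, EVPL, KAZN, PPL, PNN, CTNNA1, CTNNB1, KRT5 and KRT14 were named after their values were seen. The lists were other desmosomal genes, adherens junction genes, keratins with vimentin, transcription regulators and enzymes, and the markers those of basal and general epithelium, leukocytes, endothelium, fibroblasts and melanocytes. Some genes of these lists are not reported here.

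Deviations of same-numbered CD10- and CD10+ arrays from their group means correlated at 0.635 for the control line, 0.361 for MC26 and 0.184 for M1B26. Correlations with the unsorted arrays were -0.015 to 0.122, the highest being in M1B26. As read from the data, the replicate number paired the sorted arrays most clearly in the control line and only weakly, if at all, in M1B26. The block fit on 12 sorted arrays had 3 residual degrees of freedom and an unlimited prior, so its p-values rest on the spread pooled over all genes. Alternatives covered the pseudocount, normalisation, intensity filter, choice of probe set, moderation, samples fitted, block and removal of each array.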

Additional observations from a re-analysis of the deposited data

Results flagged for a closer look

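The results named here are differences between lines in a contrast, each tested as a difference of differences with limma. The CD10+ minus CD10- difference was lower in M1B26 than in MCF10A-CT for DSG3 (-1.86), DSP (-1.55) and PKP2 (-2.09), and lower than in MC26 for DSG3 (-1.92), DSP (-1.41) and PKP2 (-2.11), all on the log2 scale. The sorted minus unsorted difference was lower in MC26 than in MCF10A-CT for DSG3 (-1.59). It was lower in M1B26 than in MCF10A-CT for DSG3 (-2.19), DSC3 (-1.38), DSP (-1.06) and PKP2 (-1.57). The sorted side is the mean of the gates, so the low CD10+ M1B26 arrays enter these values and the CD10 differences alike. The 2 kinds of result are therefore not separate. The sorted MCF10A-CT arrays, which stood apart from the other sorted arrays, enter the MCF10A-CT side of the comparisons with that line and not those of M1B26 with MC26; their part in the former values was not tested.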

How the results depend on the processing

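No member value past the threshold changed sign in an alternative. Values with no call in the CD10 comparison did. In MCF10A-CT they became 0.05 (DSG2) and 0.01 (DSP) under quantile normalisation, and 0.04 (DSC2) and 0.14 (PKP2) with the mean over probe sets. In MC26 DSG2, DSG3, DSC2, DSC3 and PERP became 0.05, 0.08, 0.04, 0.02 and 0.08 under quantile normalisation and 0.03, 0.06, 0.03, 0.01 and 0.07 with arrays centred on the tested genes; PKP2 and PERP became 0.13 and 0.02 with the mean over probe sets. With 1 array left out, the ranges that crossed 0 were, in MCF10A-CT, PKP2 -0.64 to 0.07, DSG2 -0.28 to 0.2, DSC3 -0.5 to 0, PERP -0.32 to 0.04, DSP -0.19 to 0.07 and PKP3 -0.41 to 0.1, and in MC26 DSG2 -0.25 to 0.11, DSG3 -0.1 to 0.01, DSC2 -0.52 to 0.36, PERP -0.14 to 0.08, DSP -0.42 to 0.02 and PKP3 -0.37 to 0.03. These fits leave the other sorted array of the same number without its partner. Within both pairs PKP2, DSC3 and PKP3 in MCF10A-CT and DSC2 and PKP3 in MC26 were lower on the CD10+ array. DSG3 in MC26 was lower in one pair (508 against 539) and level in the other (499 against 499). Of all genes, 60.3% in MCF10A-CT and 73.3% in MC26 had a difference below 0. The share of all genes lower within both pairs was not counted.

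Counts of members called moved as follows. Without probe sets that can bind related transcripts only 6 members kept a probe set, and the counts were 4 for CD10 in M1B26, 2 for the CD10 average, 5 and 3 for CD10+ cells of M1B26 against MCF10A-CT and MC26, 2 for CD10+ and 1 for CD10- cells of MC26 against MCF10A-CT, and 2 for sorted minus unsorted over the lines. The CD10 average gave 3 with the mean over probe sets, 3 without moderation and 0 without the sorted arrays of M1B26. The difference of the CD10 difference, M1B26 against MC26, gave 6 under quantile normalisation, 5 with only the groups compared, 5 with the replicate block on all arrays and 6 with the block on the sorted arrays; against MCF10A-CT the 2 blocks gave 5 and 6. The block changed no other call of the CD10 comparisons within a line. Unsorted MC26 against MCF10A-CT gave 0 under quantile normalisation, without moderation, without the intensity trend and with only the groups compared. CD10- MC26 against MCF10A-CT gave 6 under quantile normalisation, 6 with centred arrays, and 0 without the filter, without the trend, without moderation and with only the groups compared; M1B26 gave 0 with only the groups compared. CD10+ MC26 against MCF10A-CT gave 3 under quantile normalisation, 2 with centred arrays, 2 with the stricter filter, 2 with the block on all arrays, and 0 without the filter, trend or moderation and with only the groups compared. Sorted minus unsorted in MC26 gave 1 with the maximum or mean over probe sets, without the filter, trend or moderation and with only the groups compared. In MCF10A-CT it gave 3 under quantile normalisation, 2 with centred arrays, 1 with the mean over probe sets and 1 with the block on all arrays. The sorted difference of MC26 against MCF10A-CT gave 2 under quantile normalisation, 2 with centred arrays and 3 with the block on all arrays. The causes were not tested.

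With 1 array left out, the counts ranged from 5 to 8 for CD10 in M1B26, 3 to 5 for the average, 0 to 1 in unsorted MC26 against MCF10A-CT, 0 to 3 for both CD10- comparisons with MCF10A-CT, 0 to 2 and 5 to 8 for CD10+ MC26 and M1B26 against MCF10A-CT, 2 to 5 for sorted minus unsorted over the lines, 0 to 1 in MCF10A-CT and 0 to 2 in MC26, and 1 to 2 and 2 to 4 for the sorted differences of MC26 and M1B26 against MCF10A-CT. A group left with 1 array was assumed to vary like the others. With 2 arrays per group, members near background such as PKP1 could not be compared.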
